A study of Mus musculus with 2 samples.

Results

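The subject is a set of 10 genes that stood apart between pools of brain microglia from vehicle-treated (VEH) and lemborexant-treated (LEM) mice. They are *Adcy8*, *Qpct*, *Cdk5rap1*, *Sfi1*, *Pianp*, *Cfap77*, *Ets1*, *Khdrbs3*, *Agrp* and *Lrba*. They were chosen because their levels differed between the VEH and LEM libraries, so that difference is a description of the choice and not a finding. All 10 were among the 11910 genes with a count in at least 1% of the cells of either library, out of 32285 genes in the table.

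Both groups were PSAPP mice, which carry the APPswe and PS1.delta.E9 transgenes of human amyloid precursor protein and presenilin and deposit amyloid plaques. From 9 to 10 months of age they were gavaged every day for 30 days with vehicle or with lemborexant, a dual orexin receptor antagonist that promotes sleep, at 30 mg/kg. A gate for microglia (live, CD45lo and CD11b+) was used to sort cells of the cortex and hippocampus, which were pooled over 5 mice, males and females, into 1 single-cell RNA library per treatment. In all, 116229678 unique molecules (counts) were recorded in 18374 VEH cells, at a median of 5971 each, and 160752298 in 24392 LEM cells, at a median of 6034 each. With 1 library per treatment there was no replicate, so no test was made, and drug, pool of mice and library cannot be told apart. All intervals are exact 95% intervals of the counts (Poisson for levels and ratios, Clopper-Pearson for shares of cells), and they cover counting error only.

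Each pool held mice of both sexes, so cells could be separated into female and male by *Xist* and 4 Y-linked genes. This gave 5686 female and 9025 male cells in VEH, and 8409 female and 11223 male cells in LEM, with median depths between 6106 and 6156.5 counts. Female and male cells of 1 library shared a treatment and a preparation but came from different mice. The number of mice of each sex is not given in the sources used here, and the sexes of a library cannot be told apart from the individual mice that gave the cells. Another 981 VEH and 1764 LEM droplets held counts of both kinds and 2682 VEH and 2996 LEM cells held neither, and all of these were left out of the comparisons by sex. The cell names carried no barcodes, so barcodes shared by the libraries could not be counted.

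The members encode proteins of different kinds. *Adcy8* encodes a calcium-stimulated adenylyl cyclase of the cell membrane, which makes the second messenger cAMP. *Qpct* encodes glutaminyl cyclase, the enzyme that closes N-terminal glutamate or glutamine into pyroglutamate, a form found on truncated amyloid-β peptides in plaques. *Cdk5rap1* encodes a methylthiotransferase that modifies mitochondrial transfer RNA. *Pianp* encodes a membrane protein bound by the inhibitory myeloid receptor PILRα, and *Agrp* a secreted antagonist of melanocortin receptors known from hypothalamic neurons. *Sfi1* encodes a centrin-binding protein of the centrosome and *Cfap77* a protein of the microtubules of motile cilia. *Ets1* encodes a transcription factor best known in lymphocytes, *Khdrbs3* an RNA-binding splicing regulator, and *Lrba* a BEACH-domain protein that protects the immune checkpoint CTLA-4 from lysosomal degradation.

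The sorted cells were microglia by their defining genes. The 10 microglial markers summed to 47652 counts per 1000000 (CPM) in VEH and 48802 in LEM, and the marker with the fewest cells was still found in 78.1% of cells. The 9 neuronal markers summed to 3.32 and 3.53 CPM, 5 T cell markers to 0.0860 and 0.106 CPM, and the 3 neutrophil markers to 0 and 0.106 CPM. Higher sums came from 3 B cell markers (97.4 and 100.3 CPM, nearly all *Ighm*), 5 oligodendrocyte markers (57.8 and 61.7 CPM, nearly all *Mag* and *Mbp*, with *Olig2* at 0 and 0.0187) and 3 endothelial markers (13.2 and 10.1 CPM, mostly *Pecam1*). The 5 choroid plexus markers differed between the libraries, at 440 CPM in VEH and 1331 in LEM, most of it *Ttr*, which was counted in 0.397% and 0.652% of cells. Its part in the differences of the members was not tested.

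Promoter sequence was at hand for 4 of the 10 genes. *Cfap77* and *Pianp* are shown because their co-detection in LEM cells, relative to the number expected, was the highest of all pairs of members. The 250 bases upstream of a start site (RefSeq, GRCm38.p6) are given 5′ to 3′ on the strand of the gene, all in lower case because no letters in them matched a searched motif. The *Cfap77* window is chr2:29055067-29055316 on the minus strand, and the *Pianp* window, the first of 3, is chr6:124996470-124996719 on the plus strand.
Cfap77: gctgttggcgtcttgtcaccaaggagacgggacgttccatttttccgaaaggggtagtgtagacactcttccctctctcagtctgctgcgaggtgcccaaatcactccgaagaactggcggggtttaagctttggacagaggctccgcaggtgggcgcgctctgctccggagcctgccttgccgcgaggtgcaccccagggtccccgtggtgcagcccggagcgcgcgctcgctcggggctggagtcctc
Pianp: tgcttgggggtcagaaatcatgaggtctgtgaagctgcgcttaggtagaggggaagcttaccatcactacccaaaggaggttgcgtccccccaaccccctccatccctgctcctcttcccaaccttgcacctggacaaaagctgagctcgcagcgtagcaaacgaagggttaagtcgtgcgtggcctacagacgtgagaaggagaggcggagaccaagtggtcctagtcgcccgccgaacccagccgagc
Motifs were searched on both strands, and their share was taken over 32851 windows of this length. A site of the myeloid factor PU.1, GAGGAAGT, was in 2.44% of them. The site of AP-1, a factor of immediate early genes, was searched as TGACTCA and was in 4.46%. An E-box, the letters bound by helix-loop-helix transcription factors such as CLOCK and MYC, was searched as CACGTG and was in 6.02%. A TATA box, searched as TATAAA near the start of transcription, was in 12.4%. None of the 6 windows of *Cfap77*, *Pianp*, *Cdk5rap1* and *Lrba* held one of these. These letters were chosen after the files were read, and their absence says nothing about the factors. The *Cfap77* window held 20 CpG dinucleotides and the 3 *Pianp* windows 13, 5 and 6, beside a median of 6 over all windows.

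All 10 genes were at least 2-fold apart between the libraries, the contrast they were chosen on, beside 0.697% of the 11910 genes tested. Of these, 4 were higher in LEM and 6 lower. The corresponding shares of all genes were 0.361% and 0.336%. Nearest to the 2-fold was *Lrba*, at a ratio of 2.04. Among genes found in at least 10% of cells, 18 passed 2-fold (0.239%), and these 10 were among them.

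None of the 10 genes was at 0 in a pool. Each had counts in both libraries and in the female and male cells of each. The lowest shares of cells with a count were 1.27% for *Ets1* in LEM male cells (interval 1.07 to 1.5), 1.78% for *Qpct* in VEH male cells (1.52 to 2.08) and 2.02% for *Adcy8* in VEH male cells (1.74 to 2.33). Such shares were set beside those of droplets with at least 5% of their counts in *Ttr*, a choroid plexus gene. There were 34 of them in VEH and 115 in LEM, at median depths of 8233.5 and 8161 counts. This range was set after the files were read, and the droplets can also hold microglial RNA. In them *Ets1* was counted in 3 of 115 LEM droplets (2.61%, 0.541 to 7.43), *Qpct* in 3 of 34 VEH droplets (8.82%, 1.86 to 23.7) and *Adcy8* in 1 of 34 (2.94%, 0.0744 to 15.3). In LEM the droplets held *Ets1* at 2.97 CPM, against 11.1 in the other cells. In VEH they held *Qpct* at 19.5 CPM against 20.9, and *Adcy8* at 6.51 against 9.87. A group picked for its low share can fall below droplets that hold a gene near its library level, such as *Qpct*. The droplets were few, deeper than the male cells and not separated by sex, so they are no matched background. The 3 lowest shares were not above theirs, and whether these groups of cells expressed the gene at all could not be told. Further shares were not above theirs either. Examples are *Agrp* (4.53%, beside 11.3% of LEM droplets) and *Pianp* (4.19%, beside 4.35%) in LEM female cells. Others are *Khdrbs3* in LEM male cells (12.1%, beside 23.5%) and *Cdk5rap1* in VEH male cells (6.74%, beside 8.82% of VEH droplets). Between the highest and the lowest group the ratio was 29.2 for *Qpct*, 22.3 for *Ets1* and 12.2 for *Adcy8*. Whether counts of the 3 lowest groups were free RNA was not tested, so these ratios and all others over those 3 groups are not exact values. For ratios over the further groups the part of free RNA was not tested, so they are not exact values either.

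Several genes differed between the female and male cells of a library, but no gene did so by 2-fold in both libraries. All 10 kept their direction of LEM over VEH in both sexes, with every interval clear of 0. These cells are parts of the libraries the genes were chosen on. Direction and 2-fold counts between the libraries thus partly follow from the choice and are no separate support. In male cells 9 genes were at least 2-fold apart, beside 1.18% of all genes (4 higher and 5 lower, beside 0.663% and 0.512%), with *Agrp* the exception. In female cells 4 were, beside 1.23% of all genes, *Cdk5rap1* higher and *Pianp*, *Cfap77* and *Agrp* lower (0.706% and 0.529% of all genes), and *Ets1* was just outside, at a log2 ratio of -1.0. Within VEH, 3 genes were at least 2-fold higher in female than in male cells (*Adcy8*, *Qpct* and *Agrp*), beside 0.647% of all genes in that direction and 1.25% in either, and none was lower by that much (0.605%). Within LEM, *Ets1*, *Khdrbs3* and *Lrba* were at least 2-fold higher in female cells (0.537% of all genes) and *Sfi1* at least 2-fold lower (0.369%), 4 genes in all beside 0.907% of all genes.

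**Figure D1:**
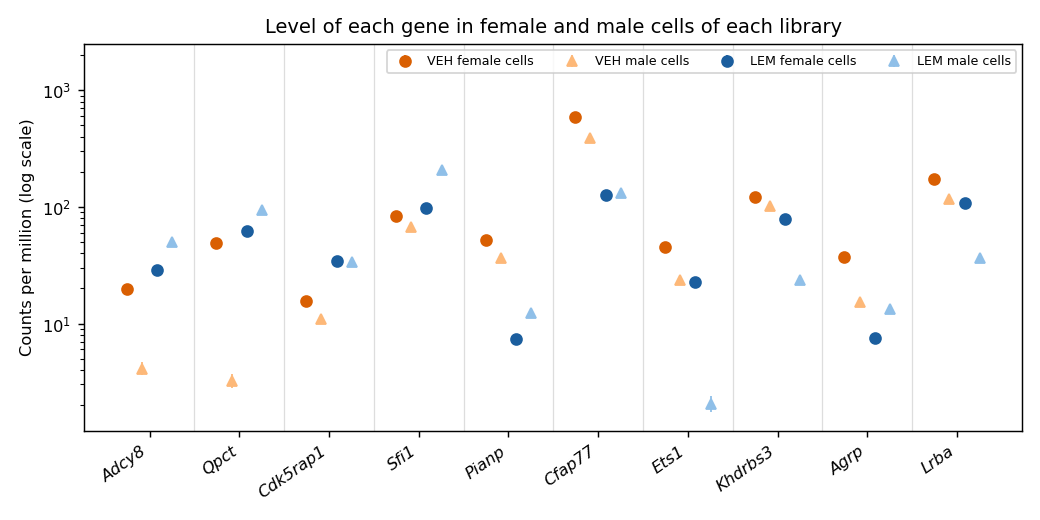
Level of each gene in CPM (log axis) in female (circles) and male (triangles) cells of VEH (orange) and LEM (blue), with bars for the exact 95% Poisson interval, often smaller than the symbol. VEH male cells stand lowest for Adcy8 (4.09) and Qpct (3.22), and LEM male cells for Ets1 (2.05).

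Of the enzymes, *Adcy8* was at 9.86 CPM in VEH and 40.5 in LEM. By sex it measured 19.9 CPM in VEH female, 4.09 in VEH male, 28.7 in LEM female and 49.98 in LEM male cells. The VEH male cells were the low group, while the VEH female cells were nearer to the LEM female cells. Thus the log2 ratio of LEM over VEH was 3.61 (3.42 to 3.81) in male but 0.53 (0.40 to 0.66) in female cells. Within VEH the log2 ratio of female over male was 2.28 (2.07 to 2.5), while within LEM it was -0.80 (-0.89 to -0.72).

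*Qpct* had the same order of groups. It was at 20.9 CPM in VEH and 79.7 in LEM, and by sex at 48.8 in VEH female, 3.22 in VEH male, 62.5 in LEM female and 94.1 in LEM male cells. Again a single group, the VEH male cells, was far below the other three. Over the low VEH male group, LEM over VEH was 4.87 on the log2 scale (4.66 to 5.09, counting error only) and 0.36 in female cells (0.28 to 0.44), and female over male within VEH was 3.92 (3.70 to 4.15). A count of *Qpct* was found in 22.8% of VEH female cells and 39.7% of LEM male cells.

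*Cdk5rap1* was the member for which both sexes moved most alike among the 4 higher in LEM. Its levels were 15.5 CPM in VEH female, 10.99 in VEH male, 34.5 in LEM female and 33.6 in LEM male cells, and the intervals of both LEM groups overlapped. LEM over VEH was 1.16 in female (1.02 to 1.30) and 1.61 in male cells (1.49 to 1.74) on the log2 scale.

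Of the ligands, *Pianp* was at 43.2 CPM in VEH and 10.3 in LEM. Female and male cells of VEH were at 51.8 and 36.8 CPM, and those of LEM at 7.43 and 12.3, so both VEH groups were above both LEM groups. The log2 ratio of LEM over VEH was -2.80 in female (-2.96 to -2.65) and -1.58 in male cells (-1.69 to -1.47).

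*Agrp* was at 23.7 CPM in VEH and 11.02 in LEM. VEH female cells stood out at 37.4 CPM, above 15.3 in VEH male, 13.3 in LEM male and 7.50 in LEM female cells. LEM over VEH was -2.32 in female cells (-2.48 to -2.16) and -0.21 in male cells (-0.34 to -0.08). The annotated *Agrp* gene spans 105566698 to 105637393 on chromosome 8 because 1 of its 3 coding transcripts starts far upstream, and this span also holds *Ctcf* and *Ripor1*. Of the neuropeptide genes on the neuronal list, *Npy* measured 0.0516 CPM in VEH and 0.0435 in LEM, *Sst* 0.0172 and 0.0498, and *Pomc* 2.32 and 2.71.

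Among the genes of centrosome and cilium, *Cfap77* was at 470 CPM in VEH and 132 in LEM. Both VEH groups (594 CPM in female and 390 in male cells) were above both LEM groups (127 and 132 CPM), whose intervals overlapped. The log2 ratio of LEM over VEH was -2.22 in female (-2.26 to -2.18) and -1.56 in male cells (-1.6 to -1.53).

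*Sfi1* was at 73.2 CPM in VEH and 161 in LEM, and the LEM male cells carried most of the rise. They were at 208 CPM, against 98.8 in LEM female, 83.3 in VEH female and 67 in VEH male cells. LEM over VEH was 0.25 in female (0.18 to 0.31) and 1.64 in male cells (1.58 to 1.69) on the log2 scale.

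The nuclear regulators and *Lrba* were lowest in LEM male cells. *Ets1* was at 45.6 CPM in VEH female, 23.4 in VEH male, 22.8 in LEM female and 2.05 in LEM male cells, and the middle groups of that order had overlapping intervals. Its log2 ratio of LEM over VEH was -1.0 in female (-1.11 to -0.89) and -3.51 in male cells (-3.77 to -3.27), and female over male within LEM was 3.48 (3.23 to 3.73). *Khdrbs3* followed the same order at 121, 101, 78.5 and 23.4 CPM, with a log2 ratio of female over male of 1.74 in LEM (1.66 to 1.83) and 0.25 in VEH (0.20 to 0.31). *Lrba* did so as well, at 172, 117, 108 and 36.8 CPM, with 1.55 in LEM (1.48 to 1.61) and 0.56 in VEH (0.51 to 0.61).

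**Figure D2:**
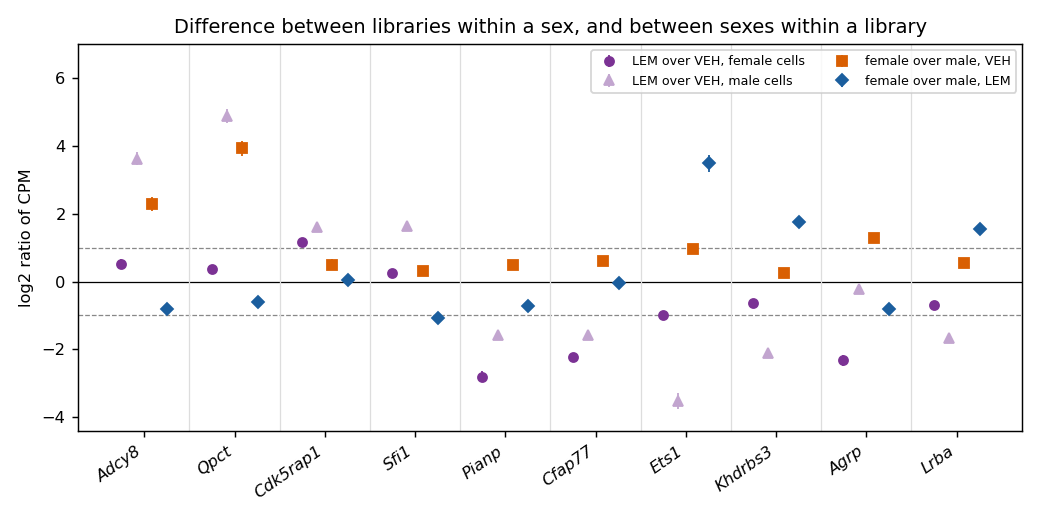
The log2 ratio of CPM for each gene between LEM and VEH in female cells (dark purple) and male cells (light purple), and between female and male cells in VEH (orange squares) and LEM (blue diamonds), with bars for exact 95% intervals and dashed lines at the 2-fold. For Qpct the difference between the sexes of VEH (3.92) lies between those of the libraries in female (0.36) and male cells (4.87), and for Ets1 the difference between the sexes of LEM is 3.48, beside differences between the libraries of -1.0 in female and -3.51 in male cells.

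The next question was how the counts of a gene were spread over the cells of a library. For each gene the number of cells with a count was set against the number that a Poisson law gives when all cells share 1 rate per count of depth. A ratio under 1 means that the counts gathered in fewer cells. In each library 7 of the 10 genes were below 0.9, beside 10.9% of all genes in VEH and 9.25% in LEM. After thinning to 2000 counts per cell, which left out the 1305 VEH (7.10%) and 1215 LEM cells (4.98%) below that depth, *Cfap77* stayed below 0.9 in both libraries (0.852 in VEH and 0.797 in LEM), beside 3.93% and 3.23% of all genes. The other 9 were above it in the draw used. Thinning also lowered the mean counts, which brings this ratio nearer to 1 for genes with few counts. Values above 0.9 at this depth thus do not show that those 9 genes were evenly spread. The shares of all genes used each cell's chance of keeping a count in place of a draw, by which *Cfap77* stood at 0.855 and 0.810 and *Adcy8* in VEH was also just below the limit, at 0.895.

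*Cfap77* had the lowest ratio in LEM and, after thinning, in both libraries, while in the unthinned VEH cells *Adcy8* (0.759) and *Qpct* (0.802) were lower. In VEH 73.8% of cells had a count (73.1 to 74.4), which was 0.832 of the Poisson number, 20.5% had 5 or more counts and the highest cell had 96. LEM cells had a count in 33.9% (33.3 to 34.5), 0.621 of the Poisson number, 3.99% had 5 or more and the highest cell had 40. LEM female cells went lowest, at 0.554, with 5896 of 8409 cells at 0 counts. Thinned to equal depth, the shares with a count were 49.2% in VEH and 17.3% in LEM.

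For the other members a larger share of cells with a count went with the higher level. From VEH to LEM the share rose from 4.56% to 18.2% of cells for *Adcy8*, from 9.78% to 33.9% for *Qpct*, from 7.42% to 18.6% for *Cdk5rap1* and from 31.6% to 54.4% for *Sfi1*. It was lower in LEM for *Pianp* (20.1% against 5.69%), *Ets1* (16.1% against 6.26%), *Khdrbs3* (41.9% against 21.8%), *Agrp* (12.7% against 6.67%) and *Lrba* (47.0% against 28.8%). At 2000 counts per cell the shares for *Adcy8* were 1.85% and 7.33%, and those for *Ets1* 6.25% and 2.28%. In the *Ttr* droplets *Cfap77* was counted in all 34 of VEH (1325 CPM) and in 61.7% of those of LEM (406 CPM), above its level in the other cells of either library (468 and 131 CPM).

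Co-detection then showed which members were found in the same cells. The number of cells with counts of both genes was divided by the number expected if the genes were independent within each of 10 bins of cell depth. Ratios below 0.67 are called exclusion here and ratios above 1.5 co-detection, for pairs with at least 20 cells expected. The 45 pairs share cells, library and depth, so they are descriptions.

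In VEH 0 of 45 pairs were below 0.67, beside 0.321% of pairs of a member with any gene, and 3 were above 1.5, beside 0.119%. *Adcy8* and *Qpct* were found together at 2.22 times the expected number (1.94 to 2.53), with a count of *Qpct* in 26.8% of *Adcy8* cells and 8.97% of the others. With the bins drawn within each sex the pair stood at 1.36, and in LEM at 0.919. *Qpct* with *Agrp* and *Adcy8* with *Ets1* both stood at 1.5. These 3 pairs join genes that were higher in VEH female than VEH male cells, and within sexes 0 pairs were above 1.5. Among VEH female cells alone the 45 ratios ran from 0.746 to 1.39, so 0 were past either limit (0.309% and 0.0624% of all pairs). Of the 40 pairs that could be compared in VEH male cells, 1 was below 0.67, *Adcy8* and *Pianp* at 0.65 (0.42 to 0.97), and 2 above 1.5, *Adcy8* with *Ets1* at 1.74 (1.26 to 2.35) and with *Sfi1* at 1.56 (1.26 to 1.92), beside 0.3% and 0.154% of all pairs. All 3 rest on the few *Adcy8* counts of these cells, found in 182 of them. The *Ttr* droplets are no matched background for these counts, so the part of free RNA in the 3 pairs was not tested.

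In LEM, some members met less often than expected. There 2 of 45 pairs were below 0.67, beside 0.261% of pairs with any gene, and 3 above 1.5, beside 0.15%. *Cfap77* and *Ets1* met in 263 cells, at 0.444 of the expected number (0.392 to 0.501): *Cfap77* was counted in 17.2% of *Ets1* cells and in 35% of the others. *Pianp* and *Ets1* stood at 0.453 (0.334 to 0.601). On the other side, *Pianp* and *Cfap77* were found together at 1.69 (1.59 to 1.80), with *Cfap77* in 69.3% of *Pianp* cells and 31.8% of the others, *Ets1* with *Lrba* at 1.66 (1.55 to 1.78) and *Ets1* with *Khdrbs3* at 1.54 (1.41 to 1.67). The last 2 pairs join genes that were higher in LEM female than LEM male cells. With the bins drawn within each sex they stood at 1.295 (1.198 to 1.399) and 1.093 (0.996 to 1.198), while *Pianp* with *Cfap77* stood at 1.73 and *Cfap77* with *Ets1* at 0.424. The last pair was further from 1 after thinning to 2000 counts (0.263) and when each gene needed 2 counts (0.306). In VEH the pair *Pianp* and *Cfap77* stood at 1.04, and at 1.14 after thinning and 1.09 with 2 counts, and the pair *Cfap77* and *Ets1* at 0.948, 0.862 and 0.860. As *Cfap77* was counted in 73.8% of VEH cells, its ratios there have little room above 1. The VEH value for *Pianp* and *Cfap77* is thus not on a par with that of LEM. This limit does not apply in the same way to ratios below 1, such as that of *Cfap77* and *Ets1*.

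More pairs met less often than expected among LEM female cells, a single treatment and sex. There 10 pairs were below 0.67 and 2 above 1.5, beside 0.557% and 0.148% of all pairs. All 10 held *Cfap77* or *Pianp*, each paired with *Qpct*, *Cdk5rap1*, *Ets1*, *Agrp* or *Lrba*. The lowest were *Cfap77* with *Ets1* at 0.288 (0.234 to 0.350), *Cfap77* with *Qpct* at 0.316 (0.277 to 0.358), *Pianp* with *Qpct* at 0.334 (0.237 to 0.459) and *Cfap77* with *Agrp* at 0.337 (0.245 to 0.453). *Cfap77* and *Pianp* themselves were together at 2.07 (1.83 to 2.34). *Qpct* and *Agrp* met at 1.54 (1.32 to 1.78), and *Qpct* with *Ets1* reached 1.47. Among themselves *Qpct*, *Cdk5rap1*, *Ets1*, *Agrp* and *Lrba* ran from 1.17 to 1.54, with 1 pair above 1.5. *Cfap77* had no count in 5896 of the 8409 LEM female cells. Genes counted mainly in that large part have limited room above 1 with each other, so the limit of 1.5 says little about them. *Sfi1* was lower with *Cfap77* and *Pianp* as well (0.759 and 0.786), short of 0.67, and *Adcy8* and *Khdrbs3* stood at 1.08 and 0.94 with *Cfap77*.

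**Figure D3:**
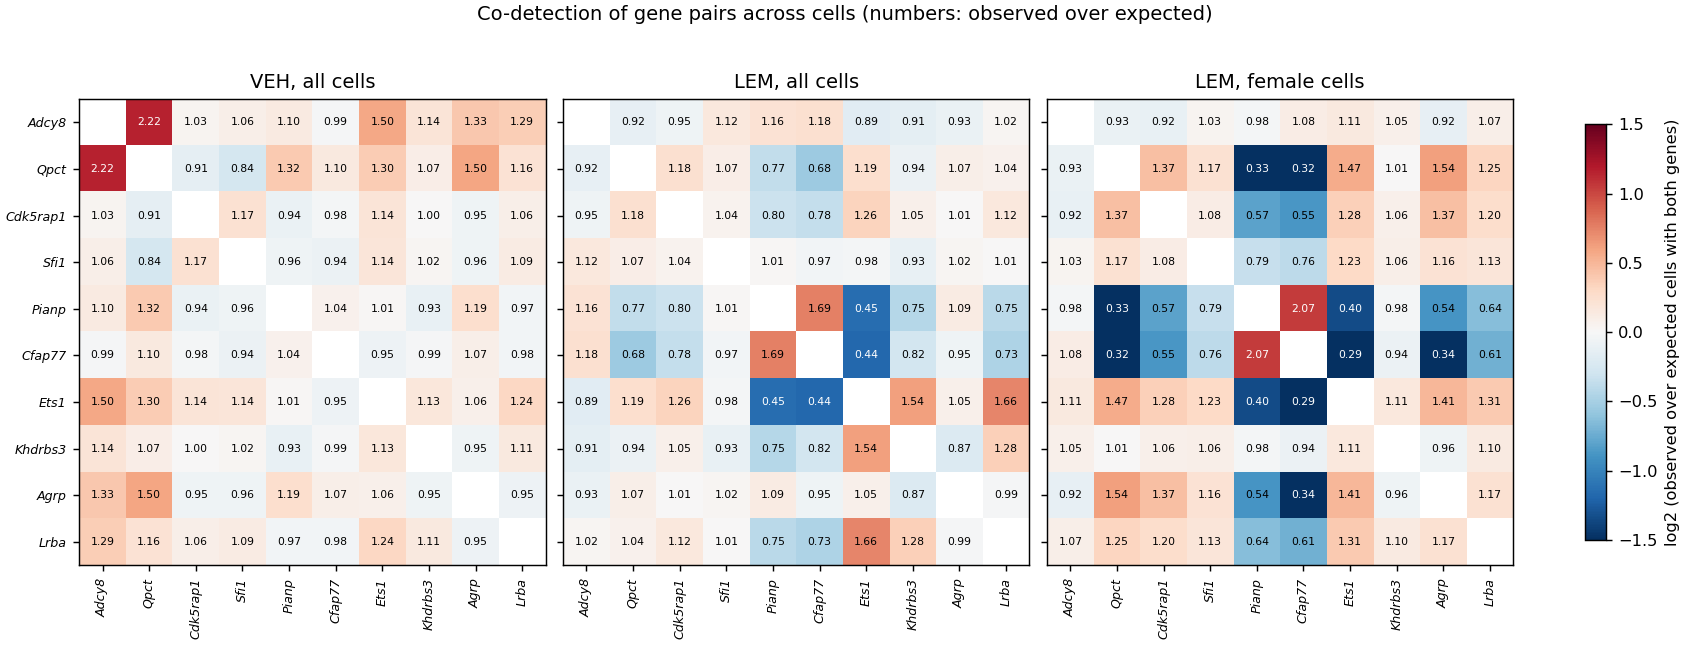
Observed over expected number of cells with counts of both genes for each pair (numbers in the squares, color on a log2 scale, red above and blue below 1), in all VEH cells, all LEM cells and LEM female cells. The rows of Pianp and Cfap77 turn blue against Qpct, Cdk5rap1, Ets1, Agrp and Lrba in LEM female cells, where Cfap77 with Ets1 stands at 0.29.

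Male cells of LEM had another pattern. *Pianp* and *Cfap77* were again together, at 1.6 (1.46 to 1.74), the pair above 1.5 of 43 pairs with enough cells (0.112% of all pairs), and 2 pairs were below 0.67 (0.28%). These were *Pianp* with *Khdrbs3* at 0.579 (0.445 to 0.741) and *Cfap77* with *Khdrbs3* at 0.669 (0.603 to 0.741). Both held *Khdrbs3*, which was near 1 with *Cfap77* and *Pianp* (0.94 and 0.98) in LEM female cells.

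The same counts can be shown without a ratio by ordering cells by their *Cfap77* counts, which is no separate support. Among LEM female cells with 0, 1, 2 to 4 and 5 or more *Cfap77* counts there were 5896, 1020, 1146 and 347 cells. Along these classes *Ets1* was counted in 16.5%, 4.41%, 3.14% and 5.19% of cells, although median depth rose from 5820.5 to 9424 counts. *Qpct* went from 34.5% to 12.1%, 6.98% and 10.7%, *Lrba* from 48.5% to 28.2%, 26.6% and 28.2%, and *Agrp* from 5.72% to 2.35%, 1.48% and 0.865%. *Sfi1* went from 44.6% to 34.3%, 32.7% and 33.7%. The step lay between 0 counts and 1 count of *Cfap77*. *Pianp* moved upward instead, from 1.51% to 6.47%, 10.9% and 20.7%. VEH female cells had no such step, with *Ets1* in 21.3%, 21.0%, 22.7% and 25.2% and *Qpct* in 8.22%, 13.9%, 23.6% and 37.8% of cells.

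**Figure D4:**
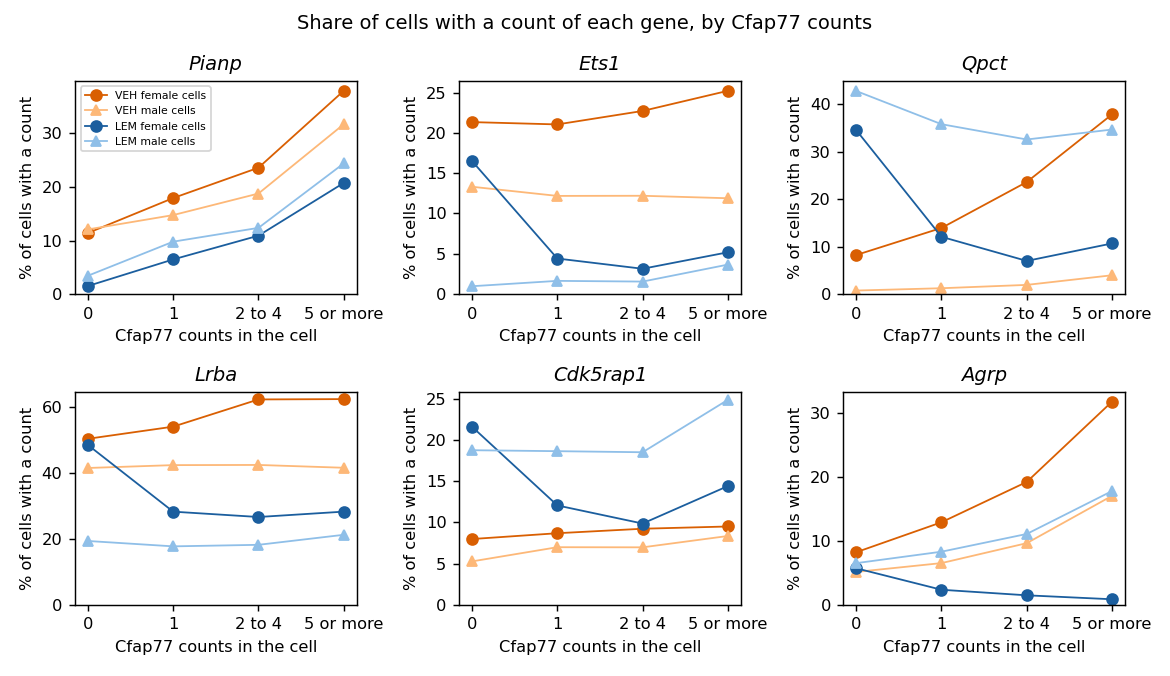
Percent of cells with a count of Pianp, Ets1, Qpct, Lrba, Cdk5rap1 and Agrp among cells with 0, 1, 2 to 4, or 5 or more Cfap77 counts, for female (circles) and male (triangles) cells of VEH (orange) and LEM (blue). In LEM female cells Ets1 goes from 16.5% to 4.41% and Qpct from 34.5% to 12.1% between 0 counts and 1 count, while the VEH female line for Ets1 runs from 21.3% to 25.2%.

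The members also varied with microglial state. Disease-associated microglia (DAM) are cells near plaques that turn on lipid and lysosomal genes. The 5% of cells with the highest share of counts in 7 DAM genes (*Cst7*, *Lpl*, *Spp1*, *Itgax*, *Axl*, *Csf1* and *Gpnmb*) are called the DAM range, a range of a score and not a cell type, with 901 VEH and 1238 LEM cells and 372 cells within 10% of its limit. The summed level of the 7 genes was 222 CPM in VEH and 221 in LEM. DAM-range cells were compared with cells outside this range and outside 2 others, the 5% highest in interferon response genes and the 1808 cells with any count of 6 proliferation genes.

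*Cfap77* and *Pianp* were higher in the DAM range. *Cfap77* was at 1128 CPM there against 414 in other VEH cells, a log2 ratio of 1.44 (1.41 to 1.48), and at 328 against 115 in LEM (1.51, 1.46 to 1.56). *Pianp* was at 103 against 39.1 CPM in VEH (1.40, 1.29 to 1.51) and 24.6 against 9.61 in LEM (1.35, 1.16 to 1.54). *Agrp* followed at 0.89 in VEH and 0.92 in LEM. *Adcy8* was lower, at 2.72 against 10.6 CPM in VEH (-1.96, -2.66 to -1.34) and 13.3 against 43.7 in LEM (-1.71, -1.96 to -1.47). *Lrba* was also lower, with -1.13 in VEH and -0.98 in LEM, and so was *Khdrbs3* (-0.92 and -0.54). At least 2-fold apart were 4 members in VEH and 3 in LEM, beside 8.95% and 7.89% of all genes, whose median log2 ratios were -0.24 in both. Median depth was 8360 and 8378 counts per cell in the DAM range of VEH and LEM against 5886 and 5934 outside. *Cfap77* was also higher in cells with a proliferation count, at 0.72 in VEH (0.67 to 0.76) and 0.89 in LEM (0.82 to 0.96). *Pianp* was at 0.28 (0.11 to 0.45) and 0.27 (-0.03 to 0.55) there. Those cells were deep too, at medians of 7949 and 7656.5 counts.

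**Figure D5:**
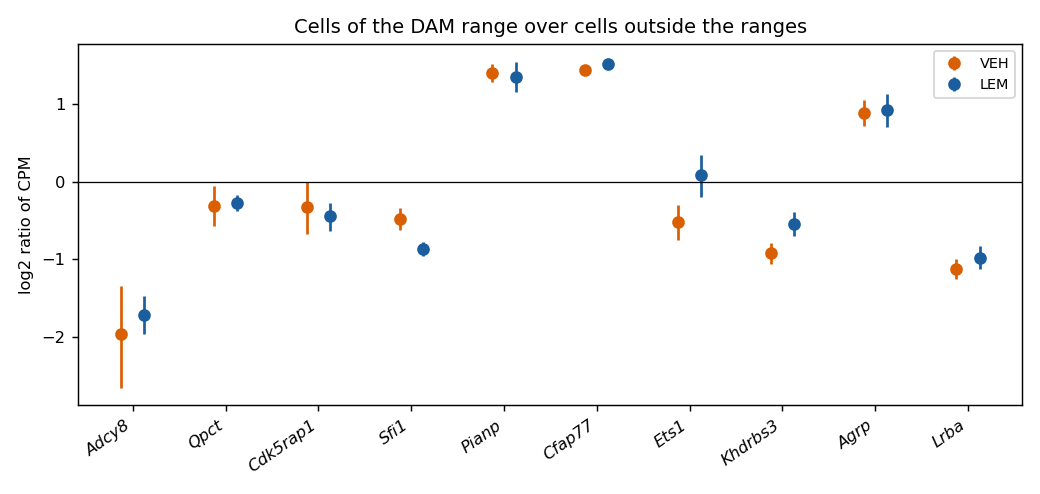
The log2 ratio of CPM in the DAM range over cells outside the ranges for each gene, in VEH (orange) and LEM (blue), with bars for exact 95% intervals. Cfap77, Pianp and Agrp lie above 0 in both libraries (1.44 and 1.51 for Cfap77) and Adcy8 lies lowest (-1.96 and -1.71).

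The difference between the libraries was present within the DAM range too. All 10 genes kept their direction there, and 6 were at least 2-fold apart, beside 1.74% of all genes. These cells are part of the libraries the genes were chosen on, so this describes the choice and is no separate support. *Cfap77* was -1.78 on the log2 scale (-1.84 to -1.72), close to its -1.84 outside the ranges, and *Adcy8* was 2.29 (1.63 to 3.03) against 2.04. Outside the 3 ranges all 10 were at least 2-fold apart, beside 0.756% of all genes. Those are most of the cells, so this restates the contrast the genes were chosen on. Leaving out the DAM range moved the ratio of *Cfap77* and *Ets1* in LEM from 0.444 to 0.405, and the co-detection of *Pianp* and *Cfap77* from 1.69 to 1.72.

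In the interferon range, with 814 VEH and 1325 LEM cells, *Adcy8* was lower too, at -0.96 on the log2 scale in VEH (-1.57 to -0.41) and -0.86 in LEM (-1.06 to -0.66). *Pianp* was at 0.13 in VEH (-0.08 to 0.33) and -0.71 in LEM (-1.13 to -0.31). In LEM the range had *Ets1* at 0.23 (-0.06 to 0.51), *Lrba* at 0.05 (-0.06 to 0.17) and *Cfap77* at -0.13 (-0.22 to -0.03). In VEH they were at -0.60 (-0.89 to -0.32), -0.17 (-0.29 to -0.06) and 0.19 (0.13 to 0.25). A wider set is the 4443 LEM cells with any count of an interferon gene. These cells held *Ets1* at 1.30 times the expected number (1.18 to 1.43) and *Lrba* at 1.15 (1.095 to 1.206). In them *Cfap77* stood at 0.808 (0.767 to 0.851) and *Pianp* at 0.751 (0.659 to 0.853). The 2727 VEH cells with such a count did not show this. They held *Ets1* at 0.965 (0.881 to 1.055), *Lrba* at 0.995, *Cfap77* at 0.997 and *Pianp* at 1.035 (0.959 to 1.116). Without the interferon range, a setting chosen after seeing the data, *Cfap77* with *Ets1* stood at 0.442 and *Pianp* with *Cfap77* at 1.67 in LEM.

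Outside the set, the genes most and least found with each member were read in the library where the member had more cells. In VEH *Pianp* was found most with *Lpl* (1.52), a lipoprotein lipase, and *Cst7* (1.42), a cystatin, and least with *Gnb4* (0.763) and *Trim12a* (0.768). *Khdrbs3* was found least with *Lpl* and *Cst7* (0.763 and 0.805) and most with *Gnb4* (1.18) and *6030468B19Rik* (1.16). *Cfap77* was found most with *Cox6a2* (1.1) and *Lpl* (1.1) and least with *Iqcn* (0.855) and *Ttll3* (0.865). In LEM *Adcy8* was found least with *Axl* (0.557, and 0.516 within sexes), a receptor kinase for apoptotic cells, and *Sdc3* (0.660), and most with *Ccdc80* (1.31) and *Sfmbt2* (1.30).

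*Ets1* was found least with *Colec12* (0.469), a scavenger receptor, and *Coro2a* (0.472) in VEH, and most with *Mpp7* (1.42) and *Gm49980* (1.40). *Lrba* shared the same lowest partners, *Colec12* at 0.622 and *Coro2a* at 0.662, and was found most with *Gnb4* (1.33) and *Gm37876* (1.30). *Agrp* was found least with *Trim12a* (0.422) and *Trim30d* (0.476), which lie in 1 gene cluster, and most with *Gm10260* (1.51) and *Ctla2b* (1.44). Drawn within sexes, *Agrp* with *Trim12a* stood at 0.575, with *Gm10260* at 1.21 and with *Ctla2b* at 1.22, and *Ets1* with *Colec12* at 0.511 and with *Mpp7* at 1.23. In LEM *Qpct* was found most with *Spint1* (1.34) and *AA465934* (1.33) and least with *Ccdc80* (0.536, and 0.496 within sexes) and *Cacnb4* (0.700). *Cdk5rap1* was found most with *Mrc2* (1.24) and *Ccdc85a* (1.23) and least with *Stk39* (0.759) and *Cacnb4* (0.764). *Sfi1* ratios ran from *Sfmbt2* and *Gm49692* (both 1.17) down to *Psat1* (0.860) and *Cst7* (0.865). Over all members, 4 of the 200 genes in the top 20 lists started within 20 Mb of the member, 2% beside 1.71% of all genes compared.

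Chromosomal neighbours of the members were also compared between the libraries. Of 315 tested genes that start within 2 Mb of a member, 3 were at least 2-fold apart between the libraries (0.952%, beside 0.697% of all genes). That share is near the one over all genes, so the count does not set the neighbours apart. Of the 3, *Gm21798* and *Gm37876* lie inside a member on the opposite strand. *Gm21798*, inside *Adcy8* (chr15:64697084-64922296, minus strand, GRCm38), was at 1.59 CPM in VEH and 7.38 in LEM. In female cells its log2 ratio was 0.76, next to 0.53 for *Adcy8*, and in male cells 3.64, next to 3.61. The pair was found in the same cells at 3.33 times the expected number in LEM (3.09 to 3.59). In VEH it met in 109 cells with 9.46 expected, under the minimum of 20 set for ratios. *Gm37876*, inside *Lrba* (chr3:86224680-86782692, plus strand), was at 20.4 CPM in VEH and 7.65 in LEM, with -0.84 in female and -3.17 in male cells next to -0.68 and -1.67 for *Lrba*, and a co-detection of 1.30 in VEH and 1.79 in LEM. Within LEM the latter was 1.44 in female and 1.38 in male cells (0.979 to 1.90), under 1.5, and in VEH female cells it was 1.09 (0.999 to 1.19). In VEH male cells it was 1.51 (1.38 to 1.64), just above 1.5. The authors name Cell Ranger but give no strand setting, and whether reads of these genes and of their hosts were mixed was not tested.

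The other was *Gapdh*, a glycolytic enzyme gene 0.165 Mb from the start of *Pianp* (chr6:124996694-125003096, plus strand), at 304 CPM in VEH and 729 in LEM. Its direction was opposite to that of *Pianp* in both sexes, at 1.77 in female and 0.87 in male cells. The share of cells with a count of *Gapdh* was 57.1% in VEH and 84.7% in LEM, which leaves little room for a co-detection ratio above 1 in LEM. With *Pianp* the ratio was 0.974 in VEH (0.935 to 1.01) and 0.972 in LEM (0.918 to 1.03). *Gapdh* was at 321 CPM in *Pianp* cells and 298 in the others in VEH, and at 715 and 730 in LEM. *Adcy8* and *Khdrbs3* are also neighbours, with starts 4.23 Mb apart on chromosome 15, and they lay in opposite directions between the libraries.

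Relatives and partners of the members were listed too. Of 71 genes 47 were tested, and 0 were at least 2-fold apart between the libraries, with 29 above 0 and 18 below. With 0.697% of all genes that far apart, a count of 0 among 47 does not set the list apart. Their median log2 ratio was 0.03 and their range -0.27 to 0.27, beside a median of 0.01 over all genes. *Adcy7* and *Adcy9*, other adenylyl cyclases, were at 0.03 and -0.24, and the paralog of glutaminyl cyclase, *Qpctl*, at -0.26. All 14 tested ETS factors lay between -0.19 and 0.18, among them the myeloid factor *Spi1* at 0.07 and the *Ets1* paralog *Fli1* at 0.00455. *Pilra*, a receptor for *Pianp*, was highest of all 47 at 0.27. Of 12 other Cfap genes 6 were tested, between -0.00178 and 0.25.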

How the data were processed

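The authors aligned 10x reads to the mm10 mouse transcriptome and counted molecules with Cell Ranger 8.0.0, named SoupX for free RNA, and deposited raw counts, whole numbers for every gene in every cell. The values do not show if the SoupX correction had been applied to these deposited counts. The table held 42766 cells, the fewest genes in a cell were 501 and the most counts 19999. No doublets were removed.

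Counts were summed over cells and divided by the total (CPM). Log2 ratios carry exact conditional intervals at 95%, and no ratio was given where both sides had at most 3 counts. Co-detection used 10 depth bins of equal size, and thinning drew 2000 counts per cell. Positions were from GENCODE M21. Genes outside the set were named by rule: the 2 highest and 2 lowest in co-detection with each member, those within 2 Mb at least 2-fold apart, and examples of relatives. The members, lists and ranges were chosen with earlier results of these data known. The co-detection step was tested on simulated data. Software was scipy 1.17.1, numpy 2.4.6, matplotlib 3.10.9 and pandas 2.3.3 under Python 3.11.15.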

Additional observations from a re-analysis of the deposited data

How the results depend on the processing

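No paired analysis was possible because each treatment has 1 library, and no replicate could be left out. The number of members at least 2-fold apart was 10 with all cells, 4 with female cells only and 6 within the DAM range, the last an alternative chosen after seeing the data. It was 9 after thinning to 2000 counts, where *Lrba* was at -0.99 on the log2 scale and missed the 2-fold. The share of all genes that far apart was 0.239% among genes in at least 10% of cells and 6.55% among all with more than 3 counts, against 0.697%. Members below 0.9 of the Poisson number went from 7 to 1 in VEH and from 7 to 1 in LEM when cells were thinned to 2000 counts. Thinning also lowers the mean counts and so brings this ratio nearer to 1, so this change does not show an even spread. Pairs below 0.67 numbered 1 in VEH after thinning and 2 when each gene needed 2 counts, against 0, and in LEM 6 and 7, against 2. Pairs above 1.5 in VEH numbered 1 with 20 depth bins and 0 within sexes, against 3, and in LEM 1 within sexes and 5 after thinning, against 3. Genes near members were at least 2-fold apart in 1.80% of cases within 1 Mb and 0.601% within 5 Mb, against 0.952% within 2 Mb. The causes were not tested. Over all settings no value changed sign. With 1 library per treatment, counting intervals do not cover differences between mice, and members with few cells, such as *Ets1* in LEM male cells, give the least precise pairs.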
